A study of Homo sapiens with 6 samples.

Results

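The AP-1 and immediate early genes examined here are 10 of the 57905 gene rows measured in Huh7 cells: the JUN family (JUN, JUNB and JUND), the FOS family (FOS, FOSB, FOSL1 and FOSL2), ATF3, EGR1 and DUSP1. They were chosen by name, and each symbol matched 1 Ensembl gene ID. Huh7 is a human hepatoma line. RNA came from 3 libraries of cells given a scrambled siRNA (siControl, labelled WT) and 3 of cells given an siRNA against ASGR1 (siASGR1, labelled AS2), all kept in serum-containing medium and harvested 72 h after transfection. The control is thus a transfected one, all libraries are of the same cell line, and untransfected cells were not analysed here. The labels number the libraries but do not say that they came from separate cultures, so each p-value is set against library-to-library spread, which could be technical in origin.

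AP-1 is a family of dimeric transcription factors built from basic leucine zipper (bZIP) proteins. JUN proteins pair with one another or with FOS proteins, FOS proteins need a JUN partner, and the dimers bind the TRE and CRE motifs of promoters and enhancers. Immediate early genes are switched on within minutes of a stimulus such as serum, growth factors or stress, without new protein synthesis, by kinases (ERK, JNK and p38) that act on factors already in the cell, among them SRF with its ELK partners at CArG boxes. EGR1 is a zinc finger factor of this class, ATF3 is a stress-induced bZIP factor of the ATF/CREB group, and DUSP1 is a phosphatase that removes the activating phosphates from those kinases. In the liver, JUN is known for its part in regeneration and tumour formation.

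The promoters of 5 of the genes are shown because they differ in motifs through which such genes are known to be switched on. They were picked with the responses known: JUN, JUND, DUSP1 and ATF3 fell and EGR1 did not pass the test. Each line holds the 210 bases before the transcription start, in the sense of the gene, from RefSeq on GRCh38.p14. Capitals mark the CRE (TGACGTCA) in JUND and DUSP1, the CRE-like TGACATCA in JUN and ATF3, and the CArG boxes of EGR1 that lie in these bases.
JUN, chr1:58784048-58784257, minus strand: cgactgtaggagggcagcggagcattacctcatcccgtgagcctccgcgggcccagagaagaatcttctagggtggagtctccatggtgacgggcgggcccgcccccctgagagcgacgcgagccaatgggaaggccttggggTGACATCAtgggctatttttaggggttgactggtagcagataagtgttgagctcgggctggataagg
JUND, chr19:18281623-18281832, minus strand: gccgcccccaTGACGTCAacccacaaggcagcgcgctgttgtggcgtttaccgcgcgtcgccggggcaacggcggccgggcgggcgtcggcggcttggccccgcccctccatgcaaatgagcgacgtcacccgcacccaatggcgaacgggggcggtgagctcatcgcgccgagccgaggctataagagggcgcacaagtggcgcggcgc
DUSP1, chr5:172771196-172771405, minus strand: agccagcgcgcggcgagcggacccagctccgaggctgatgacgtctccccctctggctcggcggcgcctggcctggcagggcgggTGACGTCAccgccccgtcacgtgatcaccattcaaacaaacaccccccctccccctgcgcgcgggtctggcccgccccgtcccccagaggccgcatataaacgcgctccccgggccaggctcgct
ATF3, chr1:212565197-212565406, plus strand: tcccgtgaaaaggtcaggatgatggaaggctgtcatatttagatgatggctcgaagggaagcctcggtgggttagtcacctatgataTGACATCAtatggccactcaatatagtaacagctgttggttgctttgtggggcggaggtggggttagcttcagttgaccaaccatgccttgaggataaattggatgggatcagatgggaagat
EGR1, chr5:138465269-138465478, plus strand: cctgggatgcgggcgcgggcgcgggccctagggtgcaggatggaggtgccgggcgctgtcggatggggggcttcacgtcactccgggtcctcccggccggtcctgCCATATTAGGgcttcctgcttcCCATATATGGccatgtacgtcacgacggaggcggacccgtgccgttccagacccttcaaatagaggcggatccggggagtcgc

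Promoters of 250 bases before to 50 after the start were found in RefSeq for 9 of the 10 genes, with 2 starts for ATF3, of which the first is shown. On either strand, the CRE was in 1.85% of all 35116 promoters, the TRE (TGAGTCA or TGACTCA) in 4.95% and the CArG box in 1.29%. Within this window, EGR1 was the only one of the 9 with a CArG box, at bases -105 to -96 and -83 to -74. Bases further upstream were not searched, so CArG boxes there would be missed in any of the genes. JUND held its CRE at bases -200 to -193 and DUSP1 at -125 to -118. FOSL2 held a TRE just past the start, at bases 5 to 11. The TGACATCA motif, added after the promoters had been read, was at -67 to -60 in JUN and at -123 to -116 at the first start of ATF3. It was in 2.61% of all promoters. The second start of ATF3 held no match of any motif searched, and FPKM per gene does not tell which start was used. The CRE core (TGACG), added in the same way, is part of the full CRE, and was in 8 of the 9 genes and in 24.6% of all promoters. EGR1 was among those with the CRE core. JUNB, which did not pass the test either, held no CArG box, and FOSL2 fell with neither a CRE nor TGACATCA. Whether any motif bears on a response was not tested. These are matches of letters, not sites shown to be bound.

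**Figure D1:**
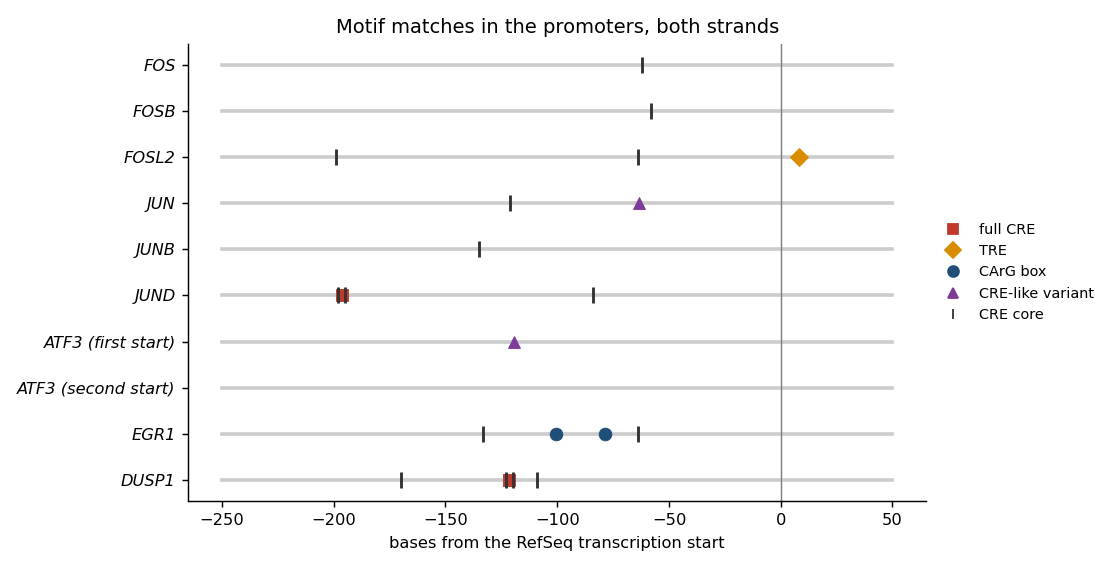
Motif matches on either strand in the RefSeq promoters, by distance in bases from the transcription start; each grey line is a promoter of 250 bases before to 50 after the start. Within these bases EGR1 alone carries CArG boxes (2), while full CREs are in JUND and DUSP1. The CRE-like variant is in JUN and at the first start of ATF3.

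The values are FPKM, fragments corrected for exon length and for library depth, so that levels can be compared between genes per length. They rested on 16326000 to 19333000 fragments per library, as recovered from the steps between low values. ASGR1, the siRNA target, was 17.54, 17.56 and 16.90 FPKM in siControl. In siASGR1 it was 4.60, 4.82 and 4.71 in the table of the whole series but 14.65, 15.81 and 14.04 in the libraries' own files, which is 27.2% or 85.6% of siControl. It was the 1 gene whose values differed between the sources, so how far ASGR1 fell depends on the source, and the values of the 10 genes here do not. All 10 hepatocyte and hepatoma markers were present and called higher in siASGR1, with a median log2 fold change of 0.89 and a sum of 4460 to 4580 FPKM in siControl and 8160 to 8520 in siASGR1. ALB was at 329 ± 10 and 488 ± 8.8, and HNF4A rose 2.27-fold. Fibroblast markers were low and moved with the group: the 7 genes summed to 5.55 to 6.72 FPKM in siControl and 0.64 to 0.88 in siASGR1, with COL1A1 at 2.05 to 2.77 and 0.02 to 0.03, and PDGFRB at 0.12 to 0.22 and 0.13 to 0.22. None of the 7 was at 0 in every library. The mitochondrial share of rebuilt reads was 6.34% to 6.56% for siControl libraries and 5.84% to 5.92% for siASGR1 libraries. Of the 6 leukocyte markers, LYZ made up nearly all of the sum of 69.6 to 76.3 FPKM in siControl and 116 to 119 in siASGR1. CD14 had a mean of 1.62 FPKM in both groups and was not called. PTPRC, CD3E, CD68 and MS4A1 were at 0.21 FPKM or less in every library. The part of any of these in the results below was not tested.

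AP-1 and immediate early genes were mostly lower in siASGR1. Of the 7 genes that passed the filter on low values (FPKM of at least 1 in at least 3 libraries), 5 fell (JUN, JUND, FOSL2, ATF3 and DUSP1), none rose, and JUNB and EGR1 did not pass the test. All 13568 genes past the filter were tested together with limma on log2(FPKM + 1), and a gene was called at a Benjamini-Hochberg adjusted p under 0.05. Of all tested genes, 61.3% were called, 40.4% lower and 20.9% higher. All 5 members were also lower at an adjusted p under 0.01, as were 30.8% of all tested genes, and JUN, ATF3 and DUSP1 were called with a log2 fold change under -1, as were 3.71%. The median log2 fold change was -0.88 over the 7 genes and -0.13 over all tested genes. FOS, FOSB and FOSL1 were under the filter. In bulk samples, fewer cells that express a gene and less RNA of it per cell cannot be told apart.

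**Figure D2:**
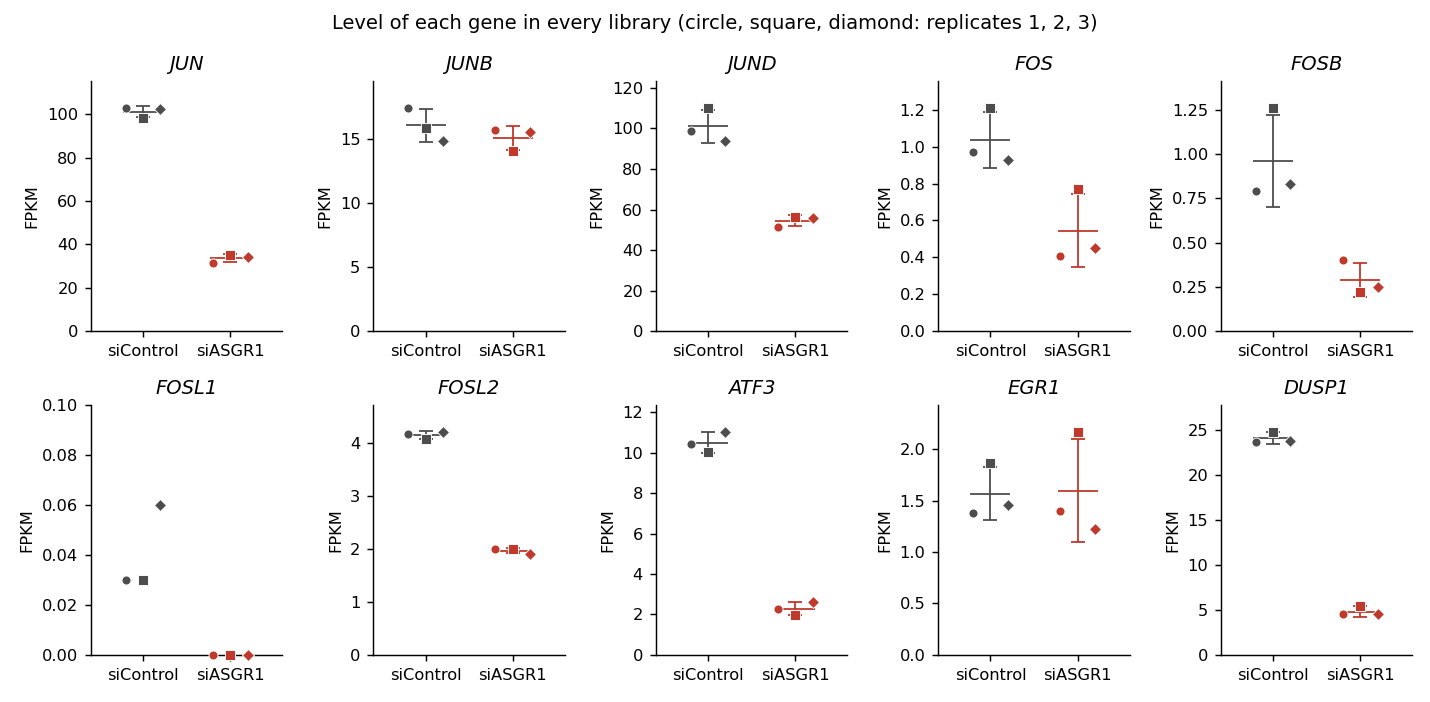
FPKM of the 10 genes in each library, with a linear axis from 0 for each gene; symbols are replicates 1 to 3, and horizontal lines with bars are the mean ± SD of 3 libraries (not drawn for FOSL1). Of the 7 tested genes, 5 are lower in siASGR1 without overlap (43.8% of all tested genes are, and 67.3% do not overlap in either direction), and JUNB and EGR1 overlap; FOS, FOSB and FOSL1 are under the filter, and FOSL1 is at 0 to 2 reads.

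JUN, the founding AP-1 member and a main target of the JNK kinases, was among the most abundant of these transcripts in siControl. Its values were 102.89, 98.09 and 102.16 FPKM in siControl and 31.58, 35.16 and 34.10 in siASGR1. All siASGR1 libraries were below all siControl libraries, with a mean of 101.0 ± 2.6 (SD, n = 3) against 33.6 ± 1.8. JUN thus fell 3.01-fold in mean FPKM, with a log2 fold change of -1.56 (SE 0.05, 95% interval -1.68 to -1.45, limma adjusted p = 2.08e-06). Only 91 of the 13568 tested genes had a lower log2 fold change. JUN (ENSG00000177606) lies on chromosome 1, 58780788 to 58784327, minus strand (GENCODE v29, GRCh38), as 1 exon without introns.

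JUND is the JUN protein that resting cells are known to hold in quantity. It was 98.92, 110.14 and 93.97 FPKM in siControl and 51.57, 56.28 and 55.65 in siASGR1. The groups did not overlap, and the means were 101.0 ± 8.3 and 54.5 ± 2.6. The 1.85-fold decrease of JUND (log2 fold change -0.88, SE 0.07, limma adjusted p = 4e-05) had a 95% interval, -1.03 to -0.72, above that of JUN. Within each library, where no scaling between libraries enters, JUN over JUND was 1.04, 0.891 and 1.09 in siControl and 0.612, 0.625 and 0.613 in siASGR1. These ratios did not overlap. The ratios between members here and below were chosen after the levels had been seen, so they describe the levels in another way and were not tested. JUND (ENSG00000130522; chromosome 19, 18279760 to 18281622, minus strand) is also a gene of 1 exon.

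JUNB, which counteracts JUN at some promoters, was the JUN family member with no detectable change. It was 17.44, 15.90 and 14.88 FPKM in siControl and 15.70, 14.04 and 15.54 in siASGR1. These ranges overlap, with means of 16.1 ± 1.3 and 15.1 ± 0.92. The log2 fold change was -0.08 (95% interval -0.25 to 0.08, limma adjusted p = 0.325), so a change within that interval cannot be told from none. JUN over JUNB was 5.90, 6.17 and 6.87 in siControl and 2.01, 2.50 and 2.19 in siASGR1. JUND over JUNB was 5.67, 6.93 and 6.32 in siControl and 3.28, 4.01 and 3.58 in siASGR1, again without overlap. JUNB (ENSG00000171223; chromosome 19, 12791496 to 12793315, plus strand) shares 259 exon bases with HOOK2 on the other strand. Since the strand setting of the counting is not given in the sources used here, reads there cannot be told apart. HOOK2 was at 3.14 to 3.89 FPKM in siControl and 2.50 to 3.08 in siASGR1.

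The makeup of the JUN pool therefore differed between the groups. The 3 genes together were 219, 224 and 211 FPKM in siControl and 98.8, 105 and 105 in siASGR1, which is 0.473 of the control mean. JUN made up 46.4% ± 2.4 of the pool in siControl and 32.6% ± 0.71 in siASGR1. JUNB made up 7.37% ± 0.51 and 14.7% ± 1.3, and JUND 46.3% ± 2.5 and 52.8% ± 0.60. None of these 3 shares overlapped between the groups (exact two-sided permutation p = 0.1 for each, the smallest that 3 against 3 libraries can give). JUN and JUND were level in siControl, where their libraries overlapped, and JUND was the highest of the 10 genes in every siASGR1 library.

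**Figure D3:**
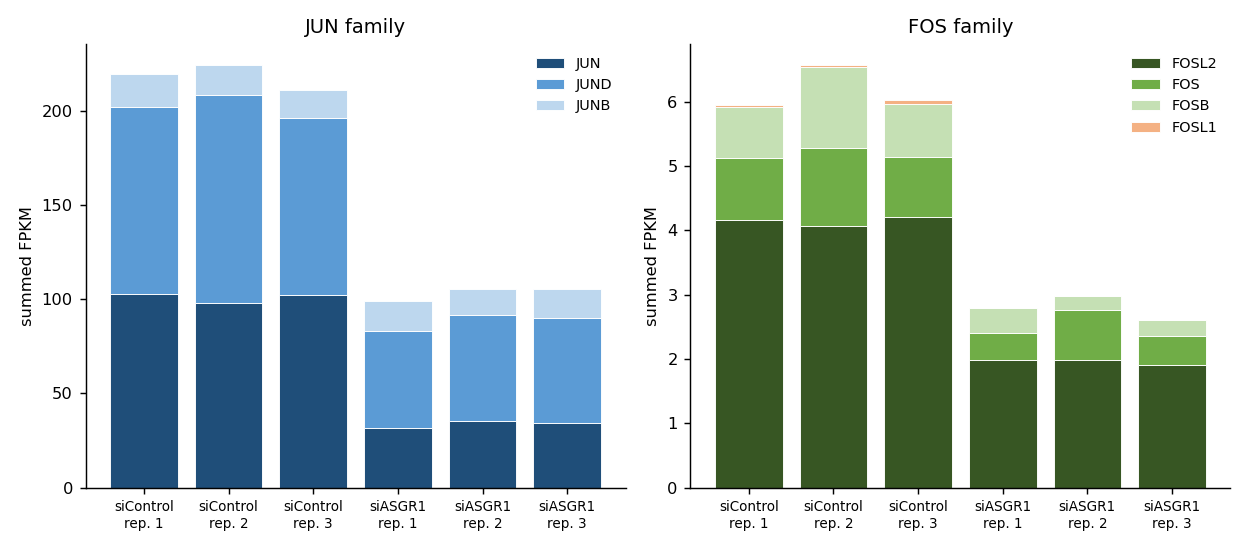
Summed FPKM per library of the JUN family (left) and the FOS family (right), stacked by gene; the axes differ. Both pools are smaller in all 3 siASGR1 libraries, and in the JUN family the JUNB segment is of about equal height in the 6 libraries.

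FOS family transcripts were far less abundant than JUN family transcripts. Their sum was 5.95, 6.57 and 6.03 FPKM in siControl and 2.80, 2.98 and 2.61 in siASGR1, so that JUN family over FOS family transcripts was 35.3 ± 1.4 and 37.0 ± 2.9. This ratio overlapped between the groups (exact permutation p = 0.5). FOSL2, which encodes FRA2, made up most of the FOS pool, at 67.2% ± 4.6 in siControl and 70.3% ± 3.3 in siASGR1.

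FOSL2 was 4.16, 4.07 and 4.21 FPKM in siControl and 1.99, 1.99 and 1.91 in siASGR1. The replicates lay close together in both groups, and the 2.11-fold decrease had a log2 fold change of -0.80 (SE 0.06, limma adjusted p = 3.62e-05). FOSL2 (ENSG00000075426) lies on chromosome 2, 28392448 to 28417312, plus strand. A noncoding gene on its other strand, FLJ31356, was at 0.06 FPKM or less in every library and shares no exon base with it.

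FOS, the best-known immediate early gene and the usual partner of JUN in stimulated cells, was low and under the filter. It was 0.97, 1.21 and 0.93 FPKM in siControl, or about 61, 66 and 49 rebuilt reads, and 0.41, 0.77 and 0.45 in siASGR1, or about 25, 46 and 28 reads. The groups did not overlap, and the siASGR1 mean was 52.4% of siControl. The call depended on the method. With no filter on low values, FOS did not pass limma (log2 fold change -0.41, SE 0.13, adjusted p = 0.0789), where 17.5% of the genes were called lower. It passed limma-voom on rebuilt reads with at least 10 reads in all (log2 fold change -0.97, SE 0.26, adjusted p = 0.00337), a fit chosen after seeing the data, in which 34.1% of the genes were called lower. FOS (ENSG00000170345) lies on chromosome 14, 75278774 to 75282230, plus strand.

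FOSB was 0.79, 1.26 and 0.83 FPKM in siControl and 0.40, 0.22 and 0.25 in siASGR1, without overlap. With no filter it was called lower by limma (log2 fold change -0.60, SE 0.13, adjusted p = 0.0206), a call lost with a replicate block (adjusted p = 0.0749). It was also called by the limma-voom fit chosen after seeing the data (log2 fold change -1.70, SE 0.27, adjusted p = 1.35e-05). FOSL1, which encodes FRA1 and is high in many invasive carcinoma lines, was hardly detected. It was 0.03, 0.03 and 0.06 FPKM in siControl, which is about 1, 1 and 2 reads, and was listed at 0 in all siASGR1 libraries, where fewer than 3 reads allow up to 0.083 to 0.086 FPKM. Both groups are thus under that limit, which covers counting error only, and no difference in FOSL1 was detectable at this depth.

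ATF3 dimerizes with JUN proteins and is known to rise with endoplasmic reticulum stress, amino acid shortage and DNA damage. It was 10.42, 10.03 and 11.05 FPKM in siControl and 2.26, 1.99 and 2.63 in siASGR1. Every siASGR1 library lay far below every siControl library, at a mean of 2.29 ± 0.32 against 10.5 ± 0.51. The 4.58-fold decrease had a log2 fold change of -1.81 (SE 0.08, limma adjusted p = 5.85e-06), and 40 tested genes had a lower one. The ratio of ATF3 to JUNB was 0.597, 0.631 and 0.743 in siControl and 0.144, 0.142 and 0.169 in siASGR1. Of its partners in the integrated stress response, ATF4 fell from 258 ± 8.6 to 212 ± 8.9 (limma adjusted p = 0.00135), a call lost with median-of-ratios scaling (adjusted p = 0.222), and DDIT3, which encodes CHOP, fell 1.86-fold (adjusted p = 7.87e-05). ATF3 (ENSG00000162772) spans chromosome 1, 212565334 to 212620777, plus strand.

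EGR1 was low and did not pass the test. It was 1.38, 1.86 and 1.46 FPKM in siControl and 1.40, 2.17 and 1.22 in siASGR1, or about 74 to 126 rebuilt reads per library. Both the lowest and the highest of the 6 values came from siASGR1. The log2 fold change was 0.00 (SE 0.15), and the 95% interval, -0.35 to 0.36, leaves room for a moderate change in either direction (limma adjusted p = 0.983). FOS over EGR1 was 0.703, 0.651 and 0.637 in siControl and 0.293, 0.355 and 0.369 in siASGR1. DUSP1 over EGR1 was 17.2, 13.3 and 16.3 in siControl and 3.21, 2.52 and 3.69 in siASGR1. The related EGR2, EGR3 and EGR4 were at or near 0 in both groups. EGR1 (ENSG00000120738) lies on chromosome 5, 138465490 to 138469315, plus strand.

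DUSP1 showed the largest decrease of the 7 tested members. It was 23.70, 24.82 and 23.75 FPKM in siControl and 4.50, 5.47 and 4.50 in siASGR1. All 3 siASGR1 libraries lay near 20% of the control mean (24.1 ± 0.63 against 4.82 ± 0.56), a 4.99-fold decrease. The log2 fold change was -2.11 (SE 0.07, limma adjusted p = 2.63e-06), and 20 tested genes had a lower one. DUSP1 (ENSG00000120129) lies on chromosome 5, 172768090 to 172771195, minus strand.

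**Figure D4:**
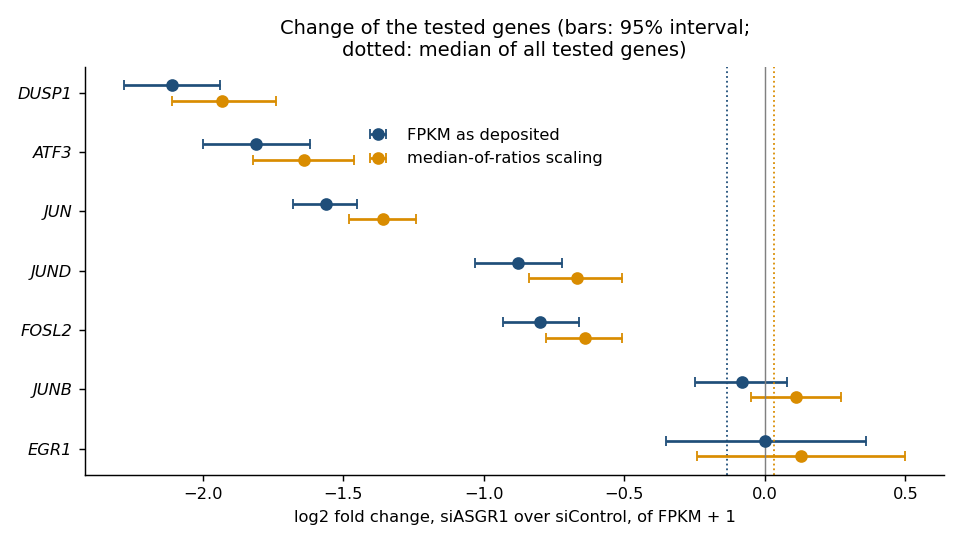
Log2 fold change of FPKM + 1 (siASGR1 over siControl) for the 7 tested genes with 95% intervals, from FPKM as deposited (blue) and with median-of-ratios scaling (orange); dotted lines are the median of all tested genes in each fit. DUSP1, ATF3, JUN, JUND and FOSL2 lie below 0 in both, and the intervals of JUNB and EGR1 include 0 in both.

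The directions of these calls did not depend on the scaling between libraries, although the balance of higher and lower calls over all genes did. Scaling by median-of-ratios factors moved the median of all tested genes from -0.13 to 0.03 on the log2 scale, and turned 2839 higher and 5480 lower genes into 4528 and 3494. With it 59.1% of all tested genes were called, 25.8% lower and 33.4% higher, and the same 5 members were called lower, at -1.93 for DUSP1, -1.64 for ATF3, -1.36 for JUN, -0.67 for JUND and -0.64 for FOSL2. JUNB was then at 0.11 (limma adjusted p = 0.209) and EGR1 at 0.13 (adjusted p = 0.509). The groups did not overlap for 5 of the 7 tested members, with siASGR1 lower, against 43.8% of all tested genes (67.3% in either direction).

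Other dual-specificity phosphatases, which switch off MAP kinases, mostly fell with DUSP1 but not all. Of 10 tested genes on the list, 7 were called lower and 2 higher, with a median log2 fold change of -0.46. Beside this list and those below, 40.4% of all tested genes were called lower and 20.9% higher. With median-of-ratios scaling these shares were 25.8% and 33.4%. DUSP8, which acts mainly on JNK and p38, was 4.97-fold lower (6.55 ± 0.43 to 1.32 ± 0.065 FPKM), and DUSP10, of similar preference, was 2.90-fold lower. DUSP4 and DUSP5, which act in the nucleus, were 3.77-fold and 1.77-fold lower. DUSP6, the cytoplasmic ERK phosphatase, rose 1.11-fold from 30.2 ± 0.78 to 33.6 ± 0.43 (limma adjusted p = 0.011), and DUSP9 rose 1.55-fold from 67.9 ± 4.0 to 105 ± 8.5.

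Immediate early genes outside the 10 also leaned lower. Of 45 listed genes 37 were tested, and 27 were called lower and 5 higher, with a median log2 fold change of -0.48. With median-of-ratios scaling the counts were 20 and 7. CCN1 and CCN2, secreted matricellular proteins that are also targets of the Hippo pathway, were 6.44-fold and 2.63-fold lower. PPP1R15A, a phosphatase subunit that ends the integrated stress response, was 2.30-fold lower, and GADD45A, a growth arrest gene, 2.01-fold lower. Against these stood CEBPD, a bZIP factor of the acute phase response, which rose from 5.53 ± 0.27 to 29 ± 2.2 FPKM. NFKBIZ, a nuclear IκB protein, rose from 5.92 ± 0.08 to 16.2 ± 0.41, ID2 rose 1.2-fold and IER5L 1.53-fold. The lists share some genes (SRF, TRIB1, MAFF and MAFK), so their counts are not independent.

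Among 20 tested bZIP genes that can pair with AP-1 proteins or compete with them, 13 were called lower and 3 higher (median log2 fold change -0.28). With median-of-ratios scaling this became 8 and 6. CREB5 fell from 4.75 ± 0.26 to 0.94 ± 0.026 FPKM and MAFK, a small MAF protein, from 12.6 ± 1.6 to 4.67 ± 0.39. CREB3, an ER-anchored factor, was 1.51-fold lower. ATF5, NFE2L1 and ATF6B rose 2.46-fold, 1.42-fold and 1.45-fold.

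Kinases and SRF-ELK factors upstream of these genes changed less. Of 34 tested genes, 16 were called lower and 4 higher, and their median of -0.14 was near that of all tested genes. Under median-of-ratios scaling the majority reversed, with 8 lower and 11 higher. MAPKAPK2, the kinase below p38, was 1.89-fold lower (23.6 ± 0.86 to 12.5 ± 0.038 FPKM). The SRF coactivator gene MRTFA was 1.70-fold lower and the ERK-activated kinase gene RPS6KA1 1.45-fold. MAP2K4, which activates JNK, rose 1.42-fold, MAPK14 (p38α) 1.23-fold and ELK1 1.11-fold. These are mRNA levels, and kinase activity was not measured. Of 7 tested genes for NAB corepressors, which bind EGR1, and for Tribbles and ubiquitin ligase proteins, which promote degradation of bZIP factors, 2 were lower (TRIB1 1.76-fold, NAB1 1.19-fold) and none higher. The call of NAB1 was lost with median-of-ratios scaling (limma adjusted p = 0.511).

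Textbook AP-1 target genes went both ways. Of 40 genes only 15 were tested. Another 22, among them the collagenase gene MMP1, stayed under 1 FPKM in every library, and the rest reached it in too few libraries. Of the 15, 8 were called lower and 4 higher, with a median log2 fold change of -0.56. With median-of-ratios scaling the counts were 7 and 5. PLAUR, among the 8, passed the filter only through siControl, so it could only come out lower. HBEGF, an EGF receptor ligand, was 3.57-fold lower (3.98 ± 0.34 to 1.11 ± 0.26 FPKM), HMOX1, heme oxygenase, 2.04-fold, GCLC, a glutathione synthesis enzyme, 1.69-fold and CCND1, cyclin D1, 1.48-fold. The cytokine gene LIF rose from 1.51 ± 0.06 to 5.94 ± 0.16 FPKM, and MMP14 and SPHK1 rose 1.43-fold and 1.64-fold.

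Of 11 tested heat shock genes, which encode chaperones, 8 were called higher and 2 lower (median log2 fold change 0.51). HSPD1, a mitochondrial chaperone, rose 2.32-fold and HSPA8, made in unstressed cells too, 1.72-fold. HSP90AA1 rose 2.34-fold and HSP90AB1 1.43-fold. BAG3 was not called (log2 fold change 0.03, limma adjusted p = 0.668), and HSPA6 and HSPA1A were under the filter. HSPA1B was 1.92-fold lower, but it is nearly identical to HSPA1A, so its reads could be split and its value is uncertain. DNAJB1 was 1.13-fold lower, a call lost with median-of-ratios scaling (limma adjusted p = 0.649).

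**Figure D5:**
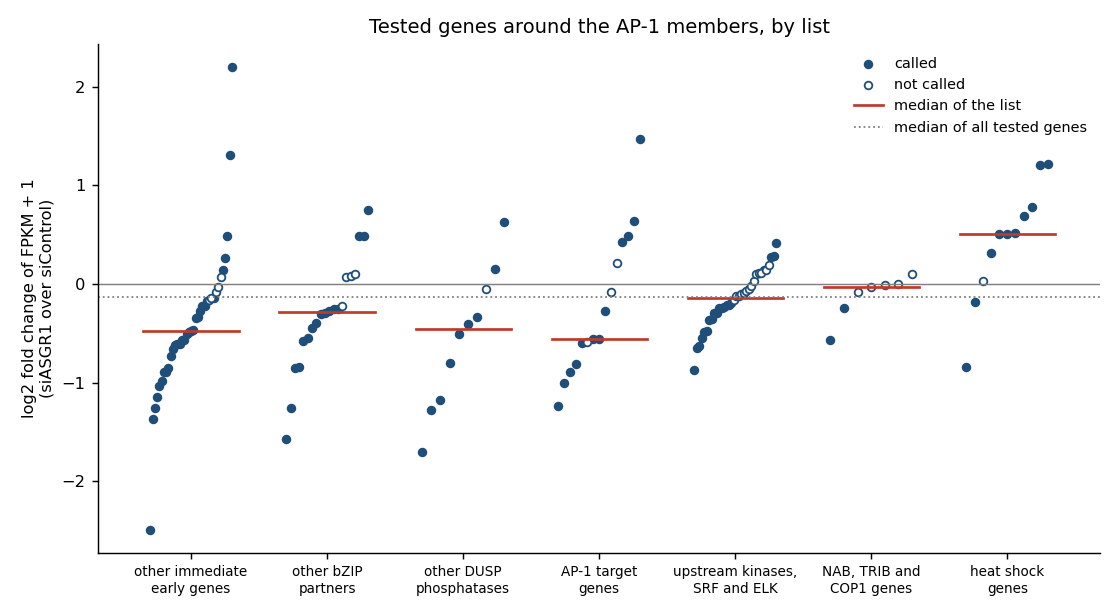
Log2 fold change of FPKM + 1 (siASGR1 over siControl) of every tested gene in 7 lists around the members, each point a gene, filled where called, with red lines at each list's median and a dotted line at the median of all tested genes. The list medians lie between -0.56 (AP-1 target genes) and 0.51 (heat shock genes).

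The order of the 10 genes by level changed with the group. In siControl it was JUN and JUND, then DUSP1, JUNB, ATF3, FOSL2, EGR1, FOS, FOSB and FOSL1, where only JUN with JUND and FOS with FOSB overlapped as neighbours. In siASGR1 it was JUND, JUN, JUNB, DUSP1, ATF3, FOSL2, EGR1, FOS, FOSB and FOSL1, and ATF3, FOSL2 and EGR1 overlapped with their neighbours. DUSP1 had 14.3% of all tested genes above it in siControl and 53.7% in siASGR1, while JUNB had 22.3% and 22.6%. JUN had 2.58% above it in siControl and 9.75% in siASGR1.

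The genes whose levels over the 6 libraries followed JUN most closely were RPA2, a DNA replication protein (Pearson r = 0.9997 on log2(FPKM + 1)), BPNT1, a nucleotidase (0.9996), and GOLGA3, a Golgi protein (0.9994). RPA2 was 31.74, 31.24 and 31.67 FPKM in siControl and 22.82, 23.53 and 23.56 in siASGR1. This is a description only: the 6 points are 3 of each group, and 2786 of the 13080 genes compared had an r over 0.95.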

How the data were processed

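Per the submitters' processing notes, the authors used HISAT2 2.0.1 with hg19 for alignment, after bcl2fastq 2.17.1.14 and trimming by cutadapt 1.9.1. Which counter was used, with which strand setting and gene models, is not given in the sources used here. Values were deposited as FPKM, per the file headers, rounded to 2 decimals, in 1 table of 57905 genes and in 1 file per library. 

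Symbols were matched for 51996 IDs (89.8%), and GENCODE v29 (GRCh38) gave positions, which the tables lack. Depth was fitted so that low FPKM, multiplied by GENCODE exon length and depth, came out as whole reads; 94.5% to 95.4% did within rounding, against 9.02% to 9.82% by chance, which is no independent check. Rebuilt reads are approximate, since the authors' exon lengths are not known, and were used only for alternatives and for counting limits.

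Genes reaching 1 FPKM in 3 or more of the 6 libraries were tested with limma 3.58.1 in R 4.3.3 on log2(FPKM + 1), with the group as the only term, a variance prior that follows the level, two-sided, and Benjamini-Hochberg adjustment over all 13568 genes. This scale understates changes of low genes; folds are of mean FPKM. Errors are SD of 3 libraries unless an SE is named. The fit was tested on simulated data. Shares were computed per library and compared by exact permutation; ratios between members were chosen after seeing the levels and not tested. Motifs were searched on both strands. The planned comparison of protein sequences was not run. Alternatives covered scaling, pseudocount, filters, prior, a replicate block, limma-voom run on the rebuilt reads, the single files, a stricter threshold and leaving out each library. The named genes are the 10 members, ASGR1, and up to 4 called genes per list and direction with the smallest adjusted p, of which some are not reported here; others (HOOK2, FLJ31356, ALB, HNF4A, COL1A1, PDGFRB, LYZ, BAG3, HSPA6, HSPA1A, ATF4, EGR2, EGR3, EGR4 and MMP1) were named after their values were seen. For JUN, the member with the smallest adjusted p, the 3 genes with the highest correlation were named. The members and lists were chosen with earlier results of these data known. Python 3.11.15, numpy 2.4.6, pandas 2.3.3 and matplotlib 3.10.9 were used for tables and plots.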

Additional observations from a re-analysis of the deposited data

How the results depend on the processing

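The number of members called stayed at 5 lower and 0 higher of 7 in every alternative that tested the same 7. It was 4 of 5 with FPKM of at least 5 (3382 of all 7829 genes), 6 of 10 with no filter (17.5% of all genes), and 7 of 9 with limma-voom on rebuilt reads with at least 10 reads in all (34.1%). Log2 fold changes ranged over the alternatives from -2.32 to -1.91 for DUSP1, -2.19 to -1.62 for ATF3, -1.63 to -1.34 for JUN, -0.99 to -0.65 for JUND and -1.08 to -0.60 for FOSL2. JUNB ranged from -0.14 to 0.13 (limma adjusted p 0.121 to 0.876) and EGR1 from -0.15 to 0.22 (0.274 to 0.995).

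Same-numbered libraries did not deviate together (correlations -0.0189, 0.00208 and 0.0125). This cannot show whether they were paired by design, which the labels do not say. With the replicate block, 5 members were lower, and 5303 genes were lower and 2761 higher. The block with no filter left 5 members lower of 10, and FOSB was no longer called (adjusted p = 0.0749).

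Over all genes, calls were 4528 higher and 3494 lower with median-of-ratios scaling, 4766 and 3266 with upper-quartile scaling, and 4325 and 3331 with that median-of-ratios scaling and the block. The bZIP list had 6 higher and 8 lower with median-of-ratios or upper-quartile scaling, and 5 higher with quantile normalization. The upstream list had 11 higher and 8 lower with the first 2, and 8 and 7 with quantile normalization. NAB, TRIB and COP1 genes had 1 higher and 1 lower with the first 2, and 1 lower with quantile normalization; heat shock genes had 1 lower with the first 2. In percentage points (siASGR1 minus siControl), the JUNB share rose by 7.3 in FPKM and 6.0 in rebuilt reads, and FOSL1 changed by -0.7 and -0.2, as shares of reads do not correct for length. The FOS share difference was 2.5 and ranged from -0.8 to 4.8 when 1 library was left out, reversing without siASGR1 replicate 2. Leaving out 1 library gave -15.1 to -12.8 for JUN (-13.8 with all) and 5.7 to 8.0 for JUND (6.5). Without siControl replicate 2, FOSL2 went from 3.1 to 0.5 and FOSB from -5.0 to -3.1; FOSL2 was 4.9 without siASGR1 replicate 2 and 1.7 without siASGR1 replicate 3.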

Other observations

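Of the 10 members, 6 were highest in the same replicate number of both groups. FOSL1 was at 0 in every siASGR1 library, so it could not match. JUNB was so in replicate 1, ATF3 in replicate 3, and FOS, JUND, EGR1 and DUSP1 in replicate 2. EGR1 was 1.86 FPKM in siControl replicate 2 against 1.38 and 1.46, and 2.17 in siASGR1 replicate 2 against 1.40 and 1.22. FOS was 1.21 against 0.97 and 0.93, and 0.77 against 0.41 and 0.45. FOSB was highest in siControl replicate 2 but lowest in siASGR1 replicate 2. The labels do not say whether same-numbered libraries were paired. With 3 libraries per group this pattern was not tested, and its share over all genes was not computed.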
